A study of Mus musculus with 8 samples.

Results

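Vip interneurons are inhibitory (GABAergic) neurons of the cortex that release the vasoactive intestinal peptide, VIP. They arise in the caudal ganglionic eminence, as the Lamp5 interneurons largely do, whereas Sst and Pvalb interneurons arise in the medial ganglionic eminence. Many Vip interneurons inhibit other interneurons and thereby disinhibit pyramidal cells, and single subtypes also carry cholecystokinin, calretinin, corticotropin-releasing hormone or the enzyme that makes acetylcholine.

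The Vip nuclei were selected on measured counts. A nucleus was kept when it had 200 to 6000 detected genes, more than 1000 unique molecular identifiers (UMIs, each standing for 1 captured RNA molecule) and less than 10% of its UMIs from mitochondrially encoded genes. It was taken as a Vip nucleus when it had at least 2 UMIs of *Gad1* and *Gad2* together (the enzymes that make GABA), at least 2 of *Vip*, and at most 1 each of *Slc17a7* (the vesicular transporter of glutamatergic neurons), *Sst*, *Pvalb* and *Lamp5*. This gate held 575 of 54341 kept nuclei (1.06%), 298 of them from Wt and 277 from Ifnar1-/- mice.

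The nuclei came from snap-frozen cortex of naive C57BL6J mice labelled as 6 weeks old, and each library was made from isolated nuclei by droplet snRNA-seq, using 10x Single Cell 3' v3 chemistry. The 4 Wt mice carried both intact copies of *Ifnar1*, which encodes a chain of the type I interferon receptor, and the 4 Ifnar1-/- mice lacked it in every cell of the body. According to the methods, the null allele had been crossed onto C57BL/6J for many generations, and whether Wt and null mice were littermates is not given in the sources used here. Each genotype had 2 females and 2 males, and each mouse gave 1 library. The comparison of genotypes asks which RNA levels in these neurons differ when the receptor is missing in young, untreated mice.

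Total UMIs per library ranged from 44063346 to 58423423, the libraries held 50 to 85 Vip nuclei each, and the median Vip nucleus had 3642 to 8714 UMIs. The library Ifnar1-/- F1 stood apart, with 241940 UMIs summed over its Vip nuclei against 420955 to 516330 in the other 7, and with 9 nuclei in the Pvalb gate. Each comparison was therefore also run without it. Of 53985 distinct barcodes among kept nuclei 352 occurred in more than 1 library. Of the 575 Vip nuclei 4 had such a barcode, and 0 barcodes were shared between 2 Vip nuclei. Scrublet called 15 of the 575 Vip nuclei (2.61%) as doublets, which were kept, and the results were repeated without them.

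*Ifnar1* (ENSMUSG00000022967, GRCm38, chromosome 16, 91485238 to 91507441) was near the limit of detection in the Vip nuclei of either genotype. It had 8, 8, 11 and 8 UMIs in the summed nuclei of Wt F1, F2, M1 and M2, and 3, 11, 7 and 8 in those of Ifnar1-/- F1, F2, M1 and M2. In CPM, a count scaled to a common library size, Wt libraries averaged 19.6 ± 4.73 and Ifnar1-/- libraries 18.2 ± 5.38 (SD over 4 libraries each). The groups overlapped, and the gene was too low to be tested. Since the counts are not resolved along the transcript, residual RNA of the disrupted gene cannot be told from intact RNA, and they do not check the labels.

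**Figure D1:**
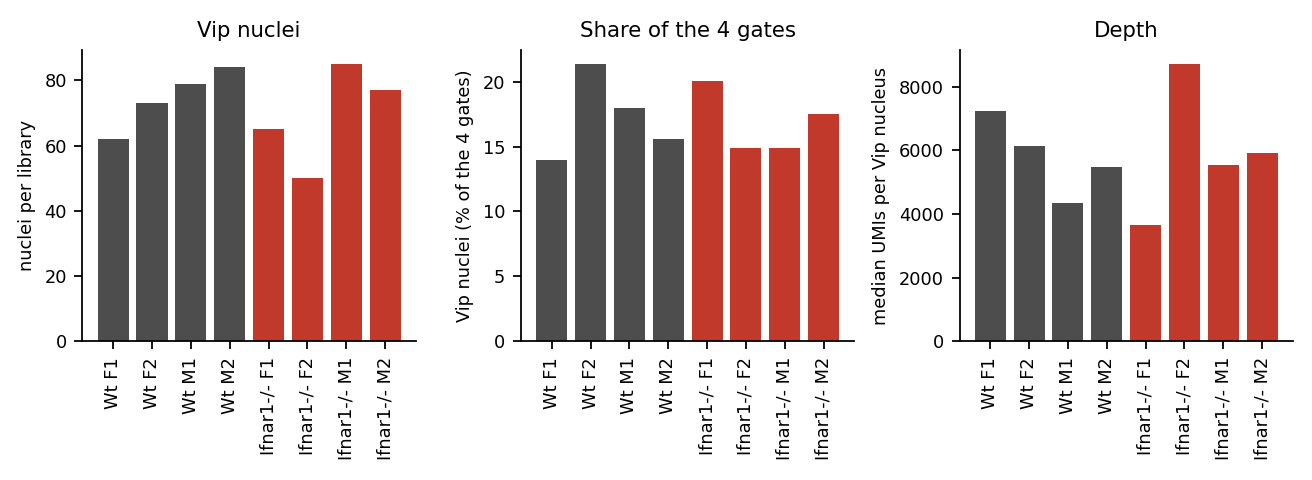
Number of Vip nuclei, their share of the nuclei in the Vip, Sst, Pvalb and Lamp5 gates (%), and their median UMIs, as bars for each of the 8 libraries (grey Wt, red Ifnar1-/-). Counts ran from 50 to 85 and shares from 14.0% to 21.35%, and both genotypes covered much of these ranges.

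The gate required at least 2 *Vip* UMIs, and most members lay well above that. The 575 nuclei had a median of 33 *Vip* UMIs (quartiles 14 and 55, lowest 2, highest 194), and 81.6% had 10 or more. Just inside the threshold, 30 nuclei had 2 *Vip* UMIs, and 70% of them had 5 or more UMIs of *Adarb2*, a marker of caudal eminence interneurons that the gate did not use. Just outside it, 225 nuclei met the other conditions with 1 *Vip* UMI, and 44.0% had 5 or more *Adarb2* UMIs. Of the 4862 that met them with 0 *Vip* UMIs, 36.4% did. Among members with 10 or more *Vip* UMIs the share was 99.8%. *Prox1*, another such marker, was at 84.5 CPM in members with 2 *Vip* UMIs and 281 to 288 CPM in those with more, so the edge of the gate was mixed. A UMI of *Vip* was also found in 4.18% of Sst-gate nuclei (median depth 8279 UMIs), 4.23% of *Slc17a7* nuclei (9752 UMIs) and 3.58% of nuclei with oligodendrocyte markers (2126.5 UMIs), types that should lack it. Per UMI these levels were 4.71, 6.96 and 25.2 CPM, against 6482 CPM in the Vip gate. The Sst gate allowed at most 1 *Vip* UMI and the Vip gate needed 2, so this contrast is partly set by the gates.

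Markers that the gate did not use are given here as a description of the gated nuclei. *Adarb2*, *Prox1* (a homeobox factor of caudal eminence interneurons), *Htr3a* (a subunit of the ionotropic serotonin receptor), *Npas1* (a transcription factor) and *Dlx6os1* were each higher in the Vip gate than in each of the other 3 interneuron gates. *Slc32a1*, the vesicular GABA transporter, was at 203 ± 61.3 CPM (SD, n = 8) in Vip nuclei and at 180 to 187 on average in the other gates, and did not pass in any of the 3 comparisons. *Crispld2*, also listed as a Vip marker, had 0 UMIs in the Vip nuclei. That limits nuclei with a detected UMI to about 0.522% only if nuclei are taken as independent, which nuclei of 1 mouse may not be. It does not limit nuclei that express the gene below detection. Among defining markers of other cells, *Aqp4* (astrocytes) and *Cldn5* (endothelium) had 0 UMIs in the Vip nuclei, and *Cspg4* (oligodendrocyte precursors) 1, while *Mog* had 57 and *Mbp* 193 (oligodendrocytes) and *C1qa* had 56 (microglia).

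How Vip nuclei differ from other interneurons of the same mice was tested on 32 sums, 4 gates in each of 8 libraries, with the mouse as a block and the 7 genes of the gates left out. The Sst, Pvalb and Lamp5 gates were built like the Vip gate and held 1915, 332 and 613 nuclei. In each library the median Vip nucleus was shallower than that of each other gate. Library medians ran from 3642 to 8714 UMIs in Vip, 5370 to 12010 in Sst, 6251 to 13600 in Pvalb and 4507 to 10580 in Lamp5 nuclei. Free RNA can take a larger share of a shallow nucleus, and the part of depth in the class differences was not tested. Of 8680 genes tested with edgeR's quasi-likelihood test (Benjamini-Hochberg adjusted p under 0.05), 2524 (29.1%) differed between Vip and Sst, 1319 higher and 1205 lower in Vip. Against Pvalb 3726 (42.9%) differed, 1984 higher and 1742 lower, and against Lamp5 2275 (26.2%), 1178 higher and 1097 lower. The median log2 difference over all genes lay between -0.0024 and 0.011 in the 3 comparisons. Higher than in each of the 3 gates were 550 genes (6.34%), and lower than in each were 309 (3.56%). The 3 comparisons share the Vip sums, and levels below are means over the 8 libraries in CPM after TMM scaling, compared within a gene. Since the gates were set on UMIs of the same nuclei, genes that vary with the gate genes had to differ, and these calls describe the gated nuclei and are no independent support for their label.

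The 10 genes with the largest excess over all 3 gates were *Tac2*, *Fbln2*, *D030055H07Rik*, *Grpr*, *Htr3a*, *Cbln2*, *Crh*, *Slc5a7*, *Gm39185* and *Dpf3*. *Tac2*, which encodes neurokinin B, stood at 734 ± 304 CPM (SD, n = 8) in Vip nuclei and at 10.7 ± 6.77 in Sst, 1.21 ± 2.31 in Pvalb and 13.8 ± 10.4 in Lamp5 nuclei (each SD, n = 8). Its lowest Vip library, at 385.5 CPM, lay above the highest library of any other gate, at 32.1. *Grpr*, the receptor of gastrin-releasing peptide, was at 53.2 to 109.6 CPM over the 8 Vip sums and at 0 to 3.95 over the 24 others. *Fbln2*, an extracellular matrix protein, was at 95.8 ± 31.3 CPM (SD, n = 8) and had 0 UMIs in all 8 Pvalb sums. *Cbln2*, a secreted organiser of synapses, was at 127 CPM in Vip against 2.18 to 4.81 in the others.

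Genes of the caudal eminence lineage were mostly higher in Vip nuclei, while those of the medial lineage were mixed. All 9 tested of 10 listed caudal eminence genes were higher in Vip than in Sst and than in Pvalb nuclei, with medians of 2.81 and 4.99 on the log2 scale. Against Lamp5 nuclei 7 of the 9 were higher and 0 lower (median 1.69). *Adarb2* was at 15450 ± 2262 CPM (SD, n = 8), against 321 ± 102 in Sst, 202 ± 206 in Pvalb and 4957 ± 996 in Lamp5 nuclei. *Prox1* was at 298 ± 44.7 CPM against 6.23, 6.71 and 91.0. *Egfr* and *Nr2f1* separated Vip from Sst and Pvalb nuclei but not from Lamp5 nuclei, where the log2 differences were 0.17 (SE 0.14, edgeR adjusted p = 0.444) and -0.011 (SE 0.15, edgeR adjusted p = 0.976).

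Of 8 listed medial eminence genes 7 were tested, and *Lhx6* and *Nxph1* were among the 3 lower in Vip than in all 3 gates. Against Sst nuclei 5 were lower and 0 higher (median -3.57), against Pvalb nuclei 5 lower and 2 higher (median -3.64), and against Lamp5 nuclei 3 lower and 4 higher (median 0.33). *Lhx6*, the transcription factor that defines this lineage, was at 1.62 ± 1.87 CPM (SD, n = 8) in Vip nuclei, 73.0 in Sst, 59.6 in Pvalb and 9.61 in Lamp5 nuclei. *Sox6* and *Satb1* were lower than in Sst and Pvalb nuclei and higher than in Lamp5 nuclei. *Maf*, a transcription factor of this list, was at 277 CPM in Vip nuclei, higher than in Pvalb (212) and Lamp5 nuclei (219), with a log2 difference of -0.042 (SE 0.077, edgeR adjusted p = 0.749) from Sst nuclei. *Elfn1*, a synaptic protein on this list and on that of Sst markers, was at 194 ± 34.6 CPM in Vip nuclei and 221 ± 24.3 in Sst nuclei, a log2 difference of -0.17 (SE 0.085, edgeR adjusted p = 0.129), against 8.07 and 5.63 in Pvalb and Lamp5 nuclei.

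**Figure D2:**
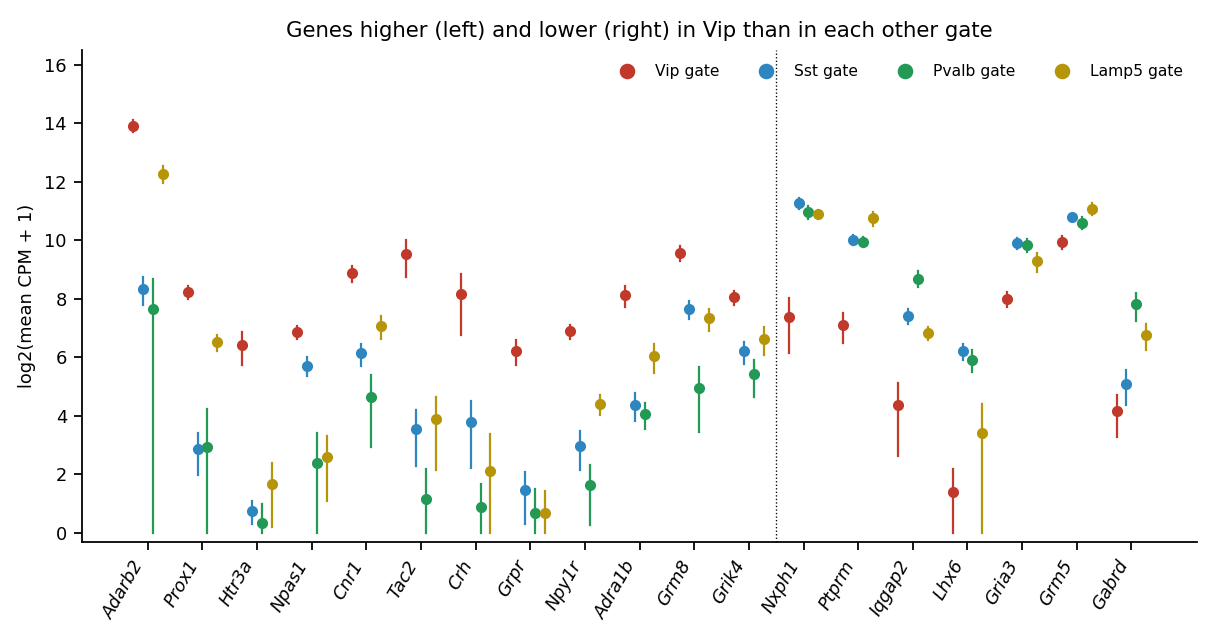
Level of 12 genes higher and 7 genes lower in Vip nuclei than in each other gate, as log2(mean CPM + 1) over 8 libraries. Points are means and lines 1 SD, cut at 0. Vip nuclei (red) stand highest left of the dotted line and lowest to its right, with *Adarb2* at 15450 CPM and *Nxph1* at 166 CPM against 1897 to 2454.

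*Nxph1*, a secreted ligand of neurexins, led the 10 genes that fell furthest short of all 3 gates, the others being *Ptprm*, *Iqgap2*, *1700016K05Rik*, *Mpped1*, *Rerg*, *Tox3*, *Kcns3*, *Coro6* and *Unc5d*. It was at 166 ± 96.0 CPM (SD, n = 8) in Vip nuclei and at 2454 ± 329 in Sst, 2009 ± 317 in Pvalb and 1897 ± 202 in Lamp5 nuclei. *Ptprm*, a receptor phosphatase of cell contacts, was at 136 CPM against 991 to 1725, and *Unc5d*, a netrin receptor, at 137 CPM against 546 to 1015. *Kcns3*, a modulatory potassium channel subunit, was at 9.64 CPM against 49.1 to 110.

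Several peptide genes were higher in Vip nuclei. Of 15 listed peptide and granin genes 12 were tested. *Cck*, *Crh*, *Penk*, *Tac2*, *Pthlh* and *Scg2* were higher in Vip than in all 3 gates, while *Tac1* was lower than in all 3. Of all genes tested, 6.34% were higher and 3.56% lower than in all 3. *Crh*, corticotropin-releasing hormone, was at 286 ± 178 CPM (SD, n = 8) against 12.7, 0.861 and 3.31. *Penk*, the enkephalin precursor, was at 203 ± 72.1 CPM against 28.7, 2.35 and 19.5. *Cck*, cholecystokinin, was at 692 ± 556 CPM against 66.1, 96.1 and 180, and its wide spread followed the sex of the mice, as given further on. *Npy* was lower in Vip nuclei (346 CPM) than in Sst (1038) and Lamp5 nuclei (2153) and higher than in Pvalb nuclei (37.9).

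Of 12 listed peptide receptors 7 were tested. *Grpr*, *Npy1r* and *Adcyap1r1* were higher in Vip than in all 3 gates, where 6.34% of all genes tested were. *Npy1r*, a receptor of neuropeptide Y, was at 118 ± 20.1 CPM (SD, n = 8) against 6.83, 2.12 and 20.2, and *Adcyap1r1*, the PACAP receptor that also binds VIP weakly, at 77.6 CPM against 48.6 to 60.7. The VIP receptors themselves, *Vipr1* and *Vipr2*, were too low to be tested, at 16.2 ± 8.93 and 3.49 ± 3.84 CPM in Vip nuclei. *Oprm1*, the mu opioid receptor, was at 55.7 CPM in Vip nuclei, higher than in Pvalb nuclei (8.33) and lower than in Lamp5 nuclei (157).

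Receptors for modulators differed in both directions. Of 17 tested, *Htr2c*, *Htr3a*, *Htr4*, *Chrna4*, *Adra1b* and *Cnr1* were higher in Vip than in all 3 gates, and *Htr1f*, *Htr2a* and *Grm5* lower. Of all genes tested, 6.34% were higher and 3.56% lower. *Htr3a* was at 83.7 ± 31.3 CPM (SD, n = 8) against 0.677, 0.255 and 2.22. *Adra1b*, an adrenergic receptor, was at 280 ± 68.1 CPM against 19.9, 15.8 and 65.1, and *Chrna4*, a nicotinic receptor subunit, at 34.2 CPM against 4.38 to 12.4. *Htr2a* was at 10.9 ± 3.28 CPM against 32 in Sst, 44.3 in Pvalb and 67.7 in Lamp5 nuclei.

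Glutamate receptor genes diverged by subunit. Of 22 tested, 7 were higher in Vip than in all 3 gates, and *Gria2*, *Grin2b*, *Grik4*, *Grm7* and *Grm8* were among them. Lower than in all 3 were *Gria3*, *Gria4*, *Grin2a* and *Grm5*. *Gria2*, the AMPA receptor subunit that blocks calcium entry, was at 1910 CPM against 1454 to 1589, and *Gria3* at 253 against 625 to 951. *Grm8*, a presynaptic glutamate receptor, was at 756 ± 127 CPM (SD, n = 8) against 199, 29.7 and 161. Among 14 GABA receptor genes 0 were higher than in all 3 gates and *Gabrd*, the delta subunit of extrasynaptic receptors, was lower, at 16.8 CPM against 33.0, 223 and 107. Over all genes tested 6.34% were higher and 3.56% lower than in all 3 gates, so so few of 14 say little about this group. Of the 10 tested genes of GABA synthesis and release, *Gphn*, *Dlx1* and *Dlx6os1* were higher than in all 3.

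A few further genes stood higher in Vip than in all 3 gates. They included 8 of 11 tested mitochondrially encoded genes, such as *mt-Nd1* at 391 ± 194 CPM (SD, n = 8) against 208 to 299, *Egr1* at 34.0 CPM against 8.79 to 20.8, and *H2-D1*, an MHC class I gene, at 34.9 ± 26.5 CPM against 7.90 to 20.9. The astrocyte marker *Slc1a2* was at 221 CPM against 21.0 to 144, while *Aqp4* was at 0. Of 69 nuclear genes of oxidative phosphorylation 1 (*Cox6c*) was higher than in all 3 gates, where 6.34% of all genes tested were. Against Pvalb nuclei 17 of the 69 were lower and 4 higher, while of all 8680 genes 1742 were lower and 1984 higher. Mitochondrially encoded RNA in a nucleus preparation can come from outside the nucleus, and Vip nuclei were the shallowest of the gates. The part of either in these differences was not tested.

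The Vip nuclei were not uniform. To compare shares at 1 depth, each nucleus was thinned to 3000 UMIs, which left out 33 shallower nuclei (10 Wt, 23 Ifnar1-/-). Of these, 22 came from the library Ifnar1-/- F1, whose thinned shares thus rest on 43 nuclei. A UMI of *Tac2* was then found in 44.5% ± 6.21 (SD, n = 8) of Vip nuclei, *Crh* in 36.0% ± 11.7, *Penk* in 35.3% ± 9.24, *Cck* in 35.2% ± 17.7, *Npy* in 16.2% ± 5.91, *Calb2* (calretinin) in 9.86% ± 5.47 and *Chat* (the enzyme that makes acetylcholine) in 6.53% ± 2.20. In the Sst gate at the same depth the shares were 1.34%, 2.51%, 5.50%, 15.6%, 48.1%, 2.76% and 0.206% in the same order. Without thinning they were 48.6%, 44.6%, 45.9%, 48.4%, 19.7%, 16.8% and 10.7% in Vip nuclei.

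Pairs of markers went together or apart across the 575 nuclei without thinning, given here as a description because deeper nuclei show more of every gene. *Tac2* was found in 66.8% of the 262 nuclei with *Crh* and 32.9% of those without it. *Calb2* was found in 10.7% of nuclei with *Crh* and 21.7% of those without, and in 10.8% of nuclei with *Tac2* against 22.2% without. *Penk* was found in 34.9% of the 278 nuclei with *Tac2* and 56.2% of those without. *Chat* was found in 28.0% of the 100 nuclei with *Slc5a7*, the choline transporter of cholinergic neurons, and 7.16% of those without. *Slc17a8*, a vesicular glutamate transporter found in some *Cck* cells, had UMIs in 3 nuclei, each of which also had *Cck*.

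**Figure D3:**
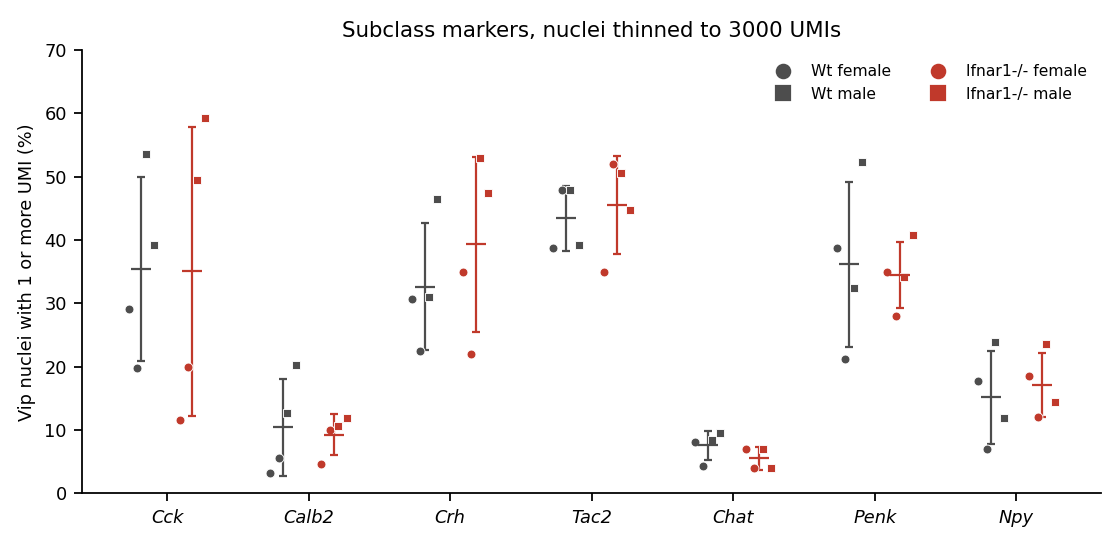
Percent of Vip nuclei with at least 1 UMI of 7 subclass markers after thinning to 3000 UMIs. Each point is a library (circles females, squares males, grey Wt, red Ifnar1-/-), and bars are means ± SD of 4 libraries. The genotypes overlap for each marker, and for *Cck* the 4 male libraries (39.3% to 59.2%) lie above the 4 female ones (11.6% to 29.0%).

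The share of Vip nuclei overlapped between the genotypes. They made up 14.0%, 21.35%, 18% and 15.6% of the nuclei in the 4 gates in Wt F1, F2, M1 and M2, and 20.1%, 14.9%, 14.9% and 17.5% in Ifnar1-/- F1, F2, M1 and M2. The means were 17.2% ± 3.20 (SD, n = 4) and 16.8% ± 2.49 (SD, n = 4), a difference of -0.39 percentage points (exact permutation test, two-sided, p = 0.8286). Within females the difference was -0.20 and within males -0.58 points. Of all kept nuclei they made up 1.12% ± 0.212 in Wt and 1.06% ± 0.205 in Ifnar1-/- (exact permutation p = 0.543, n = 4 each). After thinning, the gate of 2 UMIs kept fewer nuclei, and the share was 27.2% ± 4.003 in Wt and 21.8% ± 4.41 in Ifnar1-/- (exact permutation p = 0.171, n = 4 each), with a difference of -9.47 points in females and -1.40 in males. The smallest p this design allows is 0.0286.

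Of 24 subclass markers 0 passed for a genotype difference in the share of thinned nuclei that carried them, and the lowest unadjusted p was 0.0571 (exact permutation tests, Benjamini-Hochberg adjusted p = 1 for each, 4 libraries against 4). With 0.0286 as the smallest p and 24 markers tested, a marker alone at that p could not pass, so this outcome says little. *Crh* was in 32.7% ± 9.98 of Wt and 39.3% ± 13.8 of Ifnar1-/- nuclei (SD, n = 4 each), and *Chat* in 7.57% ± 2.31 and 5.50% ± 1.76.

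Between genotypes, with sex as a covariate, 2 of 7049 genes (0.0284%) passed edgeR's quasi-likelihood test at a Benjamini-Hochberg adjusted p under 0.05, and both were higher in Ifnar1-/-. At an unadjusted p under 0.05 there were 270 genes, and DESeq2 also called 2. Counts were simulated from these libraries, with changes set in many more of the 7049 genes than the 2 called here. The same test then recovered 100% of 4-fold and 66% of 2-fold changes, with 14 false calls. More true changes ease the adjusted threshold, so recovery can be lower where few genes differ, and smaller shifts could be missed. The median log2 difference over all genes was 0.0067.

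The first, *Gm43713* (ENSMUSG00000106218), is annotated as an antisense RNA on the minus strand of chromosome 3 from 88845025 to 88900001 (GRCm38). It stood at 93.4, 94.8, 53.0 and 52.4 CPM in Wt F1, F2, M1 and M2 and at 241, 237, 245.0 and 230.3 CPM in Ifnar1-/- F1, F2, M1 and M2. The groups did not overlap, and every Ifnar1-/- library lay above every Wt library by more than the spread within either group. The means were 73.4 ± 23.9 and 238 ± 6.26 CPM (SD, n = 4 each), a log2 fold change of 1.73 (SE 0.19, edgeR adjusted p = 9.4e-05).

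The second, *Gon4l* (ENSMUSG00000054199), a protein-coding gene, lies on the plus strand from 88835231 to 88910103 and spans *Gm43713* whole. It stood at 87.0, 78.2, 101 and 109 CPM in the 4 Wt libraries and at 189.8, 225, 224 and 209.7 CPM in the 4 Ifnar1-/- libraries, in the same order. These groups did not overlap either, and the means were 93.8 ± 13.8 and 212 ± 16.4 CPM (SD, n = 4 each), a log2 fold change of 1.18 (SE 0.16, edgeR adjusted p = 0.00235). The strand setting of the counting is not given in the sources used here, so reads of this pair cannot be told apart with certainty.

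The same direction was seen in the other gates of the same mice. In Sst, Pvalb and Lamp5 nuclei *Gm43713* averaged 90.1, 70.4 and 87.3 CPM in Wt and 293, 293 and 290 in Ifnar1-/-, and *Gon4l* 110, 120 and 101 CPM in Wt and 248, 242 and 255 in Ifnar1-/-. The difference between the genotype effect in Vip nuclei and that in the other gates was -0.059 (SE 0.17) for *Gm43713* and -0.017 (SE 0.15) for *Gon4l* on the log2 scale (edgeR adjusted p = 1.00 each).

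**Figure D4:**
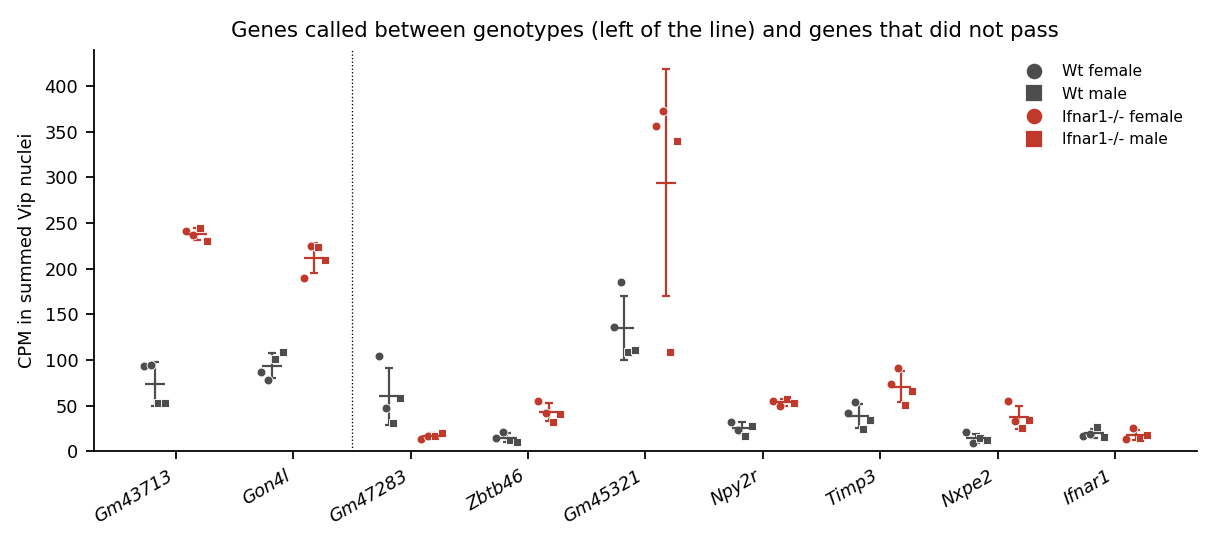
CPM in the summed Vip nuclei of each library (circles females, squares males, grey Wt, red Ifnar1-/-) with mean ± SD of 4 libraries. *Gm43713* and *Gon4l*, left of the line, were called, with Wt at most 94.8 and 109 CPM and Ifnar1-/- at least 230.3 and 189.8. The 6 genes that follow have small p-values but did not pass, and *Ifnar1* was too low to be tested.

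The genes next in order did not pass. Without the low-count filter, where 17 genes passed, *Gm47283* (edgeR adjusted p = 0.000173), *Zbtb46* (edgeR adjusted p = 0.0301) and *Gm45321* (edgeR adjusted p = 1.2e-05) were among them, as were *Gm15446*, *Nxph1*, *mt-Co1* and *mt-Nd5*. *Gm47283*, annotated on the Y chromosome but counted in both sexes here, was at 104, 47.4, 31.3 and 58.4 CPM in the 4 Wt libraries and 13.9, 16.4, 17.0 and 20.5 in the 4 Ifnar1-/- libraries (log2 difference -1.74, SE 0.36, edgeR adjusted p = 0.185). *Zbtb46*, a zinc finger transcription factor, averaged 14.6 CPM in Wt and 42.7 in Ifnar1-/- (1.53, SE 0.31, edgeR adjusted p = 0.185). *Gm45321* was at 108 to 185 CPM in Wt and at 356.5, 373, 109 and 339.7 in Ifnar1-/- F1, F2, M1 and M2 (1.11, SE 0.24, edgeR adjusted p = 0.267), so that 1 library lay among the Wt values, and it passed when that library was left out. *Npy2r*, a presynaptic receptor of neuropeptide Y, was at 16.9 to 31.8 CPM in Wt and 49.2 to 57.5 in Ifnar1-/- (1.07, SE 0.27, edgeR adjusted p = 0.790). The remaining values were 0.53 for *Gm26848*, 0.46 for *Dcc*, 0.88 for *Timp3* and 1.28 for *Nxpe2*.

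Of 20 genes found shifted in other classes of these data, a list that is thus not independent evidence, 5 were tested in Vip nuclei and *Gon4l* and *Gm43713* were called. *Gm15446* was too low to be tested, with 21, 10, 17 and 11 UMIs in the 4 Wt libraries and 0, 2, 0 and 3 in the 4 Ifnar1-/- libraries. *Gm15965* was at 39.1 ± 5.19 and 23.3 ± 9.17 CPM (SD, n = 4 each; log2 difference -0.80, edgeR adjusted p = 1.00).

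Interferon genes were barely expressed. Of 60 listed interferon response genes present in the annotation, 3 were abundant enough to be tested, 18 had 0 UMIs, and 0 were called. *Adar*, which edits RNA, had a log2 difference of 0.16, *Ly6e* of -0.32 and *H2-D1* of -0.27. The summed level of the 60 genes was 327 to 398 CPM in Wt and 296 to 394 in Ifnar1-/- libraries (exact permutation p = 0.686, n = 4 each). Of the receptor chains and their signal transducers, *Jak1* (67.5 CPM in Wt and 70.6 in Ifnar1-/-, log2 difference 0.051) and *Tyk2* (0.071) were tested and not called, and *Ifnar2*, *Stat2* and *Irf9* had 26 to 71 UMIs in all and were not tested.

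Other gene groups gave no call between genotypes. Among the 18 tested subclass markers the median log2 difference was 0.11 (12 higher, 6 lower), with *Crh* at 0.59 (SE 0.20) and *Tac2* at 0.52 (SE 0.15; edgeR adjusted p = 1.00 each). Among 22 glutamate receptor genes it was 0.019, among 12 GABA receptor genes -0.066, among 52 nuclear oxidative phosphorylation genes 0.0076, and among 11 tested genes of familial Parkinson disease 0.019, including *Lrrk2* (0.016, SE 0.20). The 11 tested mitochondrially encoded genes had a median of 0.47, 10 higher and 1 lower, with 4 at an unadjusted p under 0.05. Their summed level was 2839 to 8798 CPM in Wt and 2663 to 15170 CPM in Ifnar1-/- libraries, so that the ranges overlapped (exact permutation p = 0.429, n = 4 each). No gene was called for a genotype effect that differed by sex (0%, with 304 of 7049 at an unadjusted p under 0.05). Without Ifnar1-/- F1, which leaves 1 Ifnar1-/- female, 3 passed there, *Nts*, *Zfhx3* and *Col25a1*.

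No gene passed the test of a genotype effect that differs between Vip nuclei and the other gates (0% of 8680 genes, 386 at an unadjusted p under 0.05), and the smallest adjusted p belonged to *Nxph1* (log2 difference -1.21, SE 0.28, edgeR adjusted p = 0.404). In simulated counts this test recovered 90% of 4-fold and 47% of 2-fold changes, with 4 false calls. There too changes were set in many genes, so recovery can be lower where few differ. *Nxph1* was at 197, 202, 164 and 258 CPM in the Vip nuclei of Wt F1, F2, M1 and M2 and at 292, 89.1, 17.0 and 82.1 in Ifnar1-/- F1, F2, M1 and M2. The library Ifnar1-/- F1 was thus the highest of the 8, and the other 3 null libraries lay below every Wt library. In Sst nuclei, where the gene is abundant, the means were 2416 CPM in Wt and 2491 in Ifnar1-/-. The difference passed without Ifnar1-/- F1 (-1.85, SE 0.24, edgeR adjusted p = 3.7e-05), among nuclei with 3000 or more UMIs (-1.58, SE 0.24, edgeR adjusted p = 0.00048) and among nuclei with 5 or more *Vip* UMIs (-1.49, SE 0.27, edgeR adjusted p = 0.0119). *Nxph1* was singled out after its values were seen, and its p-values here rest on the spread of gate sums within mice. The 3 Sst markers *Sst*, *Elfn1* and *Grin3a* together were at 258 to 397 CPM in Wt and 306 to 443 in Ifnar1-/- libraries of the Vip sums. The gate held *Sst* to at most 1 UMI, and *Elfn1* was not called between Vip and Sst nuclei. This sum thus cannot gauge how many Sst nuclei the gate let in, and their part in the *Nxph1* values was not tested.

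More genes passed for sex than for genotype in the same fit, where 550 of 7049 genes (7.8%) differed between males and females, 363 (5.15%) higher and 187 (2.65%) lower in males, with 1614 at an unadjusted p under 0.05. The count ranged from 244 (without Wt M2) to 725 (without Ifnar1-/- M2), and was 314 without Wt F2 and 310 without Ifnar1-/- M1, while DESeq2 called 278. The 10 genes of smallest p were *Xist* and *Tsix*, on the inactive X and its antisense partner, *Cck*, the Y-linked *Uty*, *Eif2s3y* and *Ddx3y*, *Ssbp4*, *Gm44511*, *C1qtnf4* and *Pcsk1n*. *Xist* was at 917 to 1318 CPM in the females and at most 2.41 in the males, and *Eif2s3y* at 0 in the females and 92.7 to 172 CPM in the males, as labelled.

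*Cck* was at 244, 168, 157 and 166 CPM in the Vip nuclei of the females Wt F1, Wt F2, Ifnar1-/- F1 and Ifnar1-/- F2, and at 918, 1277, 1431 and 1101 in the males Wt M1, Wt M2, Ifnar1-/- M1 and Ifnar1-/- M2. The sexes did not overlap, and the log2 difference was 2.66 (SE 0.17, edgeR adjusted p = 6.6e-09). *Crh* was at 80.6 to 218 CPM in females and 280 to 527 in males (1.65, SE 0.20, edgeR adjusted p = 4.3e-05), and *Tac2* at 374.5 to 629.7 and 677 to 1359 (0.87, SE 0.15, edgeR adjusted p = 0.00116). The subclass markers *Cxcl14* (1.45) and *Pthlh* (0.85) were also higher in males, so 5 of 18 tested subclass markers were higher in males and 0 lower. Of all 7049 genes tested, 5.15% were higher and 2.65% lower in males.

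*Cck* was also higher on average in males outside the Vip gate. It averaged 21.8 CPM in female and 110 in male Sst nuclei, 62.4 and 297 in Lamp5 nuclei, and 38.5 and 271 in nuclei with oligodendrocyte markers, which should lack it. Without thinning, a *Cck* UMI was found in 9.13% of the female nuclei with oligodendrocyte markers (median depth 2281 UMIs) and 41.3% of the male ones (2058 UMIs), against 32% of female (6227.5 UMIs) and 64% of male Vip nuclei (5439 UMIs). How much of the *Cck* in Vip nuclei is free RNA was not tested. The share of thinned Vip nuclei with *Cck* was 20.1% ± 7.11 in females and 50.4% ± 8.40 in males (SD, n = 4 each; exact permutation p = 0.0286, Benjamini-Hochberg adjusted over 24 markers p = 0.114). For the 363 genes higher in male Vip nuclei, the male mean was also the higher one for 363 among all kept nuclei and for 360 among nuclei with oligodendrocyte markers, while of all 7049 genes it was the higher one for 4316 and 4475. For the 187 genes higher in female Vip nuclei the male mean was the higher one for 4 and 42. These sets of nuclei include or share libraries with the Vip nuclei, and the oligodendrocyte comparison was chosen after the sex result was seen.

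Other measures moved with sex. Female libraries held 50 to 73 and male libraries 77 to 85 Vip nuclei. Kept nuclei of all kinds averaged 6122 in female and 7463 in male libraries. The Vip share of kept nuclei overlapped between the sexes, at 1.061% ± 0.2102 in females and 1.119% ± 0.208 in males (SD, n = 4 each; exact permutation p = 0.6). The higher count in males is thus no evidence of a larger Vip share. The median percent of mitochondrially encoded UMIs in Vip nuclei was 0.358 ± 0.151 in females and 0.832 ± 0.361 in males (SD, n = 4 each; exact permutation p = 0.0286, the smallest this design allows). Of 11 tested mitochondrially encoded genes 9 were higher in males and 0 lower, and of 52 nuclear oxidative phosphorylation genes 11 were higher and 1 lower. Of all 7049 genes tested, 5.15% were higher and 2.65% lower in males. The oligodendrocyte markers *Mbp* and *Mag* were higher in males, and the summed level of the 5 listed markers was 49.8 to 292 CPM in females and 119 to 691 in males. The genes higher in males had a median genomic span of 10.65 kb and those higher in females 75.2 kb, against 45.7 kb over all genes tested. Of 22 tested glutamate receptor genes 5 were lower in males, among them *Gria2*, *Grin2b* and *Grm7*, and 0 higher. Labels give no date or batch of tissue or library handling, so sex and any handling that differed between males and females cannot be told apart.

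**Figure D5:**
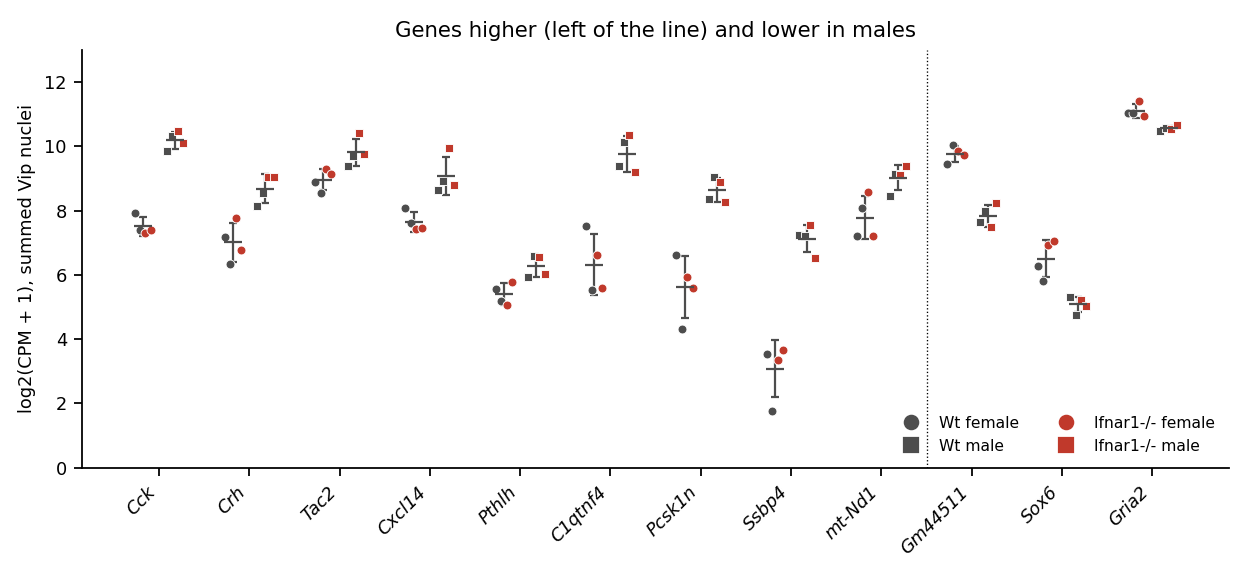
Level of 12 genes in the summed Vip nuclei as log2(CPM + 1), females as circles on the left and males as squares on the right of each gene, with mean ± SD of 4 libraries (grey Wt, red Ifnar1-/-). *Cck* runs from 157 to 244 CPM in females and 918 to 1431 in males, and *Gm44511*, *Sox6* and *Gria2* are lower in males.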

How the data were processed

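The authors aligned snRNA-seq reads with Cell Ranger 3.1.0 to a mouse reference (GRCm38) in which transcripts were set as exons, so that unspliced RNA counted, and deposited raw UMI counts per gene and barcode, not normalized. From these counts, nuclei of each gate were summed per library, since the mouse is the replicate. The authors' classes were not used here. Members, gene lists and tests were chosen with earlier results of these data known. Sums were compared with edgeR 4.0.16 (TMM, filterByExpr with a minimum count of 10, quasi-likelihood test, Benjamini-Hochberg adjustment). The fit was tested on simulated data. Shares were compared by two-sided exact permutation tests. Thinning drew 3000 UMIs per nucleus (seed 1). Alternatives used DESeq2 1.42.0 and stricter gates. Scrublet ran through scanpy 1.11.5. Coordinates and spans are from GENCODE annotation of GRCm38. Named genes were those called or, if fewer than 10, those of smallest p up to 10, the 10 largest differences shared by 3 class comparisons per direction with at least 20 CPM, 10 by sex, and members of the lists.
Co-detection and the sex comparison in other nuclei were added after the data were seen. Intervals are not given for depth. The p-values for genotype, sex and shares measure the spread between mice. Comparisons of gates, and of the genotype effect between gates, used several sums per mouse with the mouse as a block. Their p-values rest on the spread of gate sums within mice. Some genes are not reported here.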

Additional observations from a re-analysis of the deposited data

Results flagged for a closer look

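In 48 groups of 4 libraries, 2 values lay far from the other 3 by Dixon's criterion, about the 1 in 20 that chance flags. The summed UMIs of the Vip nuclei in Ifnar1-/- F1 were 242000, against 465000 to 485000 in the other Ifnar1-/- libraries. *Gm45321* was at 109 CPM in Ifnar1-/- M1, against 340.0 to 373 in the other 3 Ifnar1-/- libraries. In the first case the counts of genes called between genotypes and between classes without that library were within 1.5 times those with it, and in the second the gene passed without that library.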

How the results depend on the processing

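*Gm43713* and *Gon4l* passed under every alternative run (no sex term, replicate block, RLE size factors, DESeq2, no low-count filter, *Vip* at least 5 UMIs, doublets removed, *Slc17a7* at 0, at least 3000 UMIs, each library left out). Deviations of same-numbered libraries from their genotype mean correlated at 0.223 to 0.358, and at 0.0123 in females and -0.0852 in males once the sex mean was removed. That step also removes any handling shared within a sex, and 2 mice per sex and genotype leave 1 value per sex. What the replicate numbers share is thus not settled. With the replicate block 2 genes passed, *Gm43713* at 1.73 (edgeR adjusted p = 0.000851) and *Gon4l* at 1.18 (edgeR adjusted p = 0.0142), and the block changed no other call. The genotype count was 17 without the low-count filter, and 2 to 3 with 1 library left out. The sex count was 834 without the filter, 278 with DESeq2 and 244 to 725 with 1 library left out. The genotype-by-sex count was 11 without the filter and 0 to 3 with 1 library left out. The count for genotype in Vip nuclei against the other gates was 5 without the filter, 1 with *Vip* at least 5 UMIs, 1 with at least 3000 UMIs per nucleus, and 0 to 1 with 1 library left out. The cause of these changes was not tested. The class counts stayed within 1.5 times of those reported under each alternative.

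The difference in the share of Vip nuclei ran from -1.46 to 0.987 percentage points with 1 library left out, changing sign without Wt F2, Ifnar1-/- F2 or Ifnar1-/- M1. Differences in marker shares, none of which passed, also changed sign. Without thinning they were 3.87 points for *Cck* and -1.30 for *Cxcl14*. At 2 or more UMIs they were 1.48 for *Cck*, 1.15 for *Penk*, 2.26 for *Chat* and -0.349 for *Npy*. With *Slc17a7* at 0 they were 0.335 for *Cck*, -0.907 for *Cxcl14* and 0.438 for *Cnr1*. With 1 library left out, the ranges were -8.38 to 7.48 for *Cck*, -3.58 to 2.09 for *Calb2*, -0.0396 to 5.67 for *Tac2*, -6.71 to 3.70 for *Penk*, -0.712 to 4.92 for *Npy*, -8.47 to 5.73 for *Cxcl14* and -1.68 to 1.93 for *Cnr1*. Leaving out 1 of 2 mice per sex and genotype assumes that the lone mouse varies like the others. With 50 to 85 Vip nuclei per library, genes of few UMIs, *Ifnar1* and most interferon genes among them, could not be tested.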
